A study of Mus musculus with 24 samples.

Results

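Cultured astrocytes of *SOD1G93A* mice were compared with those of wild-type (WT) mice after both had been driven into the neuroinflammatory reactive state with cytokines. The members are the 6 samples whose labels give activated astrocytes, 3 WT and 3 *SOD1G93A*, of 24 in the series, and the 12098 of 24411 genes whose normalized count averaged at least 10 over these 6 libraries. The series profiled purified mouse astrocytes and microglia of both genotypes by bulk RNA-seq of polyA-enriched, strand-specific, paired-end libraries, in a quiescent and an activated state, in a study of glia in amyotrophic lateral sclerosis (ALS). Astrocytes were immunopanned from early postnatal forebrain, with antibody to HepaCAM as the positive step after microglia, endothelial cells and oligodendrocyte lineage cells had been panned away, and were kept in serum-free medium with HBEGF. Both groups received a mixture of 3 ng/mL IL-1α, 30 ng/mL TNFα and 400 ng/mL C1q that stands in for factors released by activated microglia. *SOD1G93A* mice carry a human SOD1 transgene with an ALS mutation that is expressed widely and not in astrocytes alone, and the table had no entry for human SOD1, so the transgene itself was not measured. For comparison, quiescent astrocytes of each genotype had received buffer in place of the cytokines (3 libraries each), and microglia of each genotype had received LPS at 50 ng/mL (3 libraries each).

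Type I interferons bind the receptor formed by IFNAR1 and IFNAR2, and the kinases JAK1 and TYK2 then activate transcription factors, STAT2 and IRF9 among them, that bind the interferon-stimulated response element in the promoters of many interferon-stimulated genes. The products of these genes sense and degrade foreign RNA, block viral entry and replication, present antigen and, as with USP18, switch the receptor off again. Astrocytes carry the receptor, and reactive astrocytes in inflamed, infected or ageing brain are known to include cells that express such genes.

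The unit throughout is the normalized count, the number of reads divided by a size factor for the library. The WT libraries held 5047999, 6768201 and 5749391 reads and the *SOD1G93A* libraries 3721779, 3929272 and 2135439. All 3 *SOD1G93A* libraries were thus shallower than all 3 WT libraries. Nothing in the labels says whether the replicates came from separate cultures or animals, so the p-values measure the spread between these libraries, which may be technical.

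The 6 libraries carried the markers of astrocytes, with a summed level that overlapped between the genotypes and single markers that moved either way by less than 2-fold. *Hepacam*, the gene of the protein used in panning, stood at 935, 1027 and 1057 in the WT libraries and at 1067, 1044 and 1085 in the *SOD1G93A* libraries (log2 fold change 0.08 ± 0.06 (SE), adjusted p = 0.5). *Slc1a3*, the glutamate transporter GLAST, stood at 9226, 9288 and 9596 in WT and 9676, 9658 and 10213 in *SOD1G93A*, and its groups did not differ at the threshold (adjusted p = 0.558). Of 20 astrocyte markers, 18 passed the filter and none was called (background 0.645%), while 8 did not overlap with *SOD1G93A* above (background 12.5%) and 4 with *SOD1G93A* below (background 11.6%). *Aqp4*, the water channel of astrocyte endfeet, read 370.5, 421 and 415 in WT and 531, 533 and 546 in *SOD1G93A* (log2 fold change 0.42 ± 0.07 (SE), adjusted p = 0.000744), and *Gfap* pointed the other way, with a log2 fold change of −0.33. The summed level of the list was 31310, 31544 and 32112 in WT and 31296, 31632 and 32261 in *SOD1G93A*, with *Apoe* the most abundant per kilobase of exon and *Gjb6* at 3 reads or fewer in every library. Mouse *Sod1* was level, at 1318, 1221 and 1268 in WT and 1215, 1363 and 1462 in *SOD1G93A* (log2 fold change 0.08 ± 0.07 (SE), adjusted p = 0.553).

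Activated *SOD1G93A* astrocytes expressed more of an interferon response than activated WT astrocytes, and 54 of the 78 called genes were interferon-stimulated. Of 12098 genes tested, 78 (0.645%) were called, with an adjusted p under 0.001 and over 2-fold difference in the limma test with an intensity trend. Of these, 63 (0.521%) were higher in *SOD1G93A* astrocytes and 15 (0.124%) were lower. A list of 213 interferon-stimulated genes held 54 of the 63 higher genes and none of the 15 lower ones. Its members were chosen with earlier results of these data known, so the shares given here may be set in part by that choice. Of the 213, 197 were in the table and 136 passed the filter, of which 39.7% were called. Their median log2 fold change was 0.93, beside a median of −0.0038 over all genes tested, and 121 of the 136 lay above 0, beside 5951 of all 12098. At an adjusted p under 0.05 and any fold change, 879 of all genes (7.27%) differed, 88 of them on the list, and with a 2-fold limit as well 123 did, 62 of them on the list. The filter let through 13 of the 136 with a WT mean under 10, so these passed on their level in the *SOD1G93A* libraries. With a filter of at least 10 in every library, 74 of 11473 genes were called, 49 of them on the list. Without any filter, 190 of the listed genes had a read, and the *SOD1G93A* mean was the higher one for 156 of them (82.1%), beside 47.7% of the 16761 genes with a read. The 3 WT and 3 *SOD1G93A* values did not overlap, with *SOD1G93A* above, for 97 of the 136 listed genes (71.3%), where the background was 1517 of all genes tested (12.5%). In the opposite direction 3 of the 136 did not overlap, where the background was 1400 (11.6%). In bulk RNA, more cells that express a gene and more RNA in each cell cannot be told apart.

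**Figure D1:**
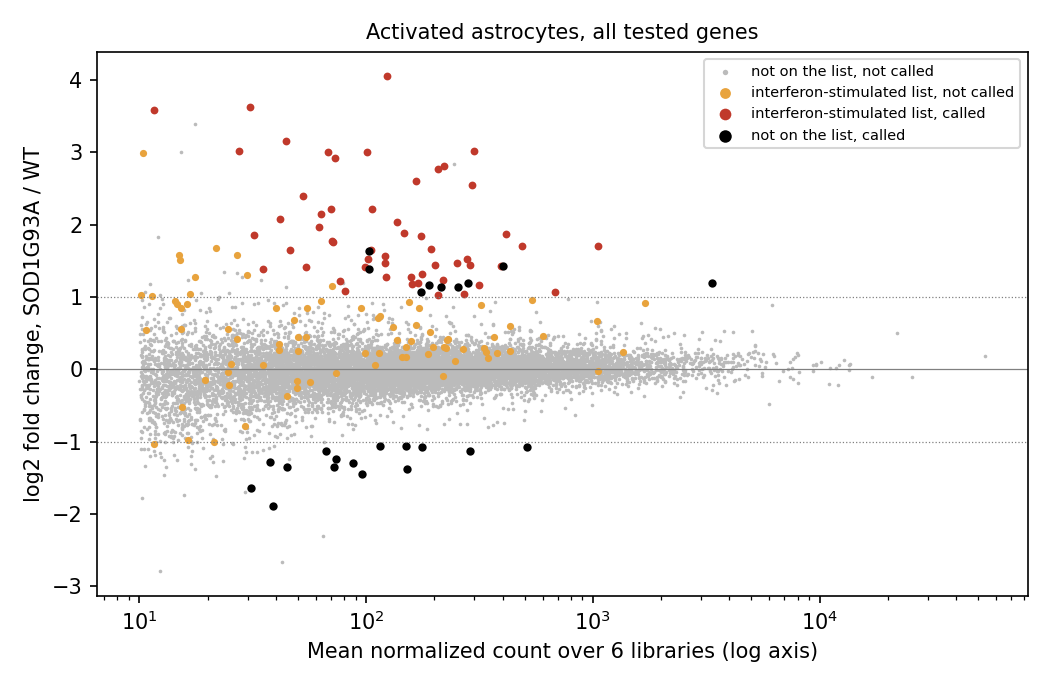
Log2 fold change of activated *SOD1G93A* over activated WT astrocytes (vertical axis) against the mean normalized count over the 6 libraries (horizontal log axis) for the 12098 genes tested, one point a gene; dotted lines mark a 2-fold change. The 54 called genes of the interferon-stimulated list (red) lie between 1.02 and 4.05, the other 24 called genes (black) between −1.89 and 1.64, and the median of all genes lies at −0.0038.

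A change of more than 2-fold without a call was seen in 79 further genes, 51 of them lower in *SOD1G93A* astrocytes and 13 of them on the interferon-stimulated list. The largest of these 13 changes belonged to *F830016B08Rik*, a predicted interferon-inducible GTPase, at 0.831, 3.08 and 0.739 in WT and 28.9, 18.7 and 10.2 in *SOD1G93A* (log2 fold change 2.9956 ± 0.54 (SE), adjusted p = 0.00108). *Gbp4*, a guanylate-binding protein, stood at 9.14, 9.23 and 10.3 in WT and 41.6, 37.4 and 22.4 in *SOD1G93A* (log2 fold change 1.67 ± 0.30 (SE), adjusted p = 0.0011). Of the filter itself, the gene just inside it was *Adamts2*, with a mean of 10.0029 over the 6 libraries, and the gene just outside was *Gm20319*, with a mean of 9.99.

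Among the antiviral effectors, the largest fold change belonged to *Ifi44* (chr3:151730922-151749960, GRCm38), which encodes an interferon-induced cytoplasmic protein. Its normalized counts were 11.6, 10.5 and 17.001 in the WT libraries and 312, 222 and 169 in the *SOD1G93A* libraries, 16.6-fold higher on the log2(value + 1) scale (log2 fold change 4.05 ± 0.22 (SE), adjusted p = 8.05e-11). The lowest *SOD1G93A* library thus lay far above the highest WT library. *Oasl2* (chr5:114896936-114912234), a member of the 2′-5′-oligoadenylate synthetase-like family, read 63.1, 56.6 and 73.2 in WT and 701, 426 and 478 in *SOD1G93A* (log2 fold change 3.01 ± 0.14 (SE), adjusted p = 3.56e-11). *Ifit1* (chr19:34640871-34650009), whose product binds viral RNA that lacks the host cap methylation, read 34.9, 59.1 and 44.4 and 372, 249.9 and 236 (log2 fold change 2.61 ± 0.18 (SE), adjusted p = 3.14e-09). Its neighbours on chromosome 19 were higher as well. *Ifit3* (chr19:34583531-34588731) read 42.4, 59.1 and 61.4 in WT and 459.8, 323 and 375 in *SOD1G93A* (log2 fold change 2.81 ± 0.14 (SE), adjusted p = 5.12e-11), and *Ifit3b* (chr19:34607970-34613401) read 9.97, 14.8 and 16.3 and 183, 88.1 and 93.7 (log2 fold change 3.01 ± 0.26 (SE), adjusted p = 8.16e-08). *Ifit3* and *Ifit3b* are near-identical copies, so how the reads were shared out between them is uncertain.

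*Isg15* (chr4:156199424-156200818), a ubiquitin-like modifier, read 20.8, 26.5 and 19.958 in the WT libraries and 139, 83.7 and 91.6 in the *SOD1G93A* libraries (log2 fold change 2.15 ± 0.20 (SE), adjusted p = 4.18e-07). *Rsad2* (chr12:26442746-26456452), which encodes viperin, read 46.5, 62.8 and 49.5 and 253, 215 and 191 (log2 fold change 2.04 ± 0.14 (SE), adjusted p = 4.06e-09). *Xaf1* (chr11:72301629-72313733), a pro-apoptotic interferon target, was among the more abundant of the strongly changed genes, at 83.1, 70.8 and 102 and 589, 427 and 491 (log2 fold change 2.55 ± 0.13 (SE), adjusted p = 4.16e-11). In each of these 3 genes the lowest *SOD1G93A* value was at least 3 times the highest WT value. *Bst2* (chr8:71534255-71537456), which encodes tetherin, a protein that holds budding virions on the cell surface, read 48.2, 54.8 and 47.3 and 191, 131 and 161 (log2 fold change 1.65 ± 0.15 (SE), adjusted p = 1.67e-07). *Eif2ak2* (chr17:78852564-78882573), which encodes the RNA-activated kinase PKR, changed least of this group, at 181, 163 and 186 and 414, 329 and 350.2 (log2 fold change 1.04 ± 0.10 (SE), adjusted p = 2.62e-07).

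The other called genes of the list, from *Rtp4* at a log2 fold change of 2.77 to *Slfn9* at 1.08, were *Cmpk2*, *Dtx3l*, *Gbp9*, *Herc6*, *Ifi27*, *Lgals3bp*, *Parp9*, *Parp12*, *Parp14*, *Phf11d*, *Samd9l*, *Slfn8*, *Tor3a* and *Zc3hav1*, all without overlap.

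Some called effectors were near the floor of detection in WT astrocytes. *Ddx60* (chr8:61928087-62038244), a helicase of antiviral RNA sensing, read 8.31, 0.616 and 5.17 in WT and 78.6, 47.3 and 44.8 in *SOD1G93A* (log2 fold change 3.63 ± 0.47 (SE), adjusted p = 2.52e-05). *Mx2* (chr16:97535308-97560900), a dynamin-like restriction factor, read 2.49, 11.7 and 3.70 and 70.5, 39.6 and 36.6 (log2 fold change 3.01 ± 0.41 (SE), adjusted p = 4.5e-05), and 1 WT value, 11.7, stood apart. *Gm4951* (chr18:60212080-60247820), an interferon-inducible GTPase, had 1, 2 and 1 reads in the WT libraries and 20, 21 and 10 in the *SOD1G93A* libraries. The ratio of the summed reads, scaled by size factor, was 23.5, with a 95% Clopper-Pearson interval of 8.65 to 89.7 that covers counting error only.

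**Figure D2:**
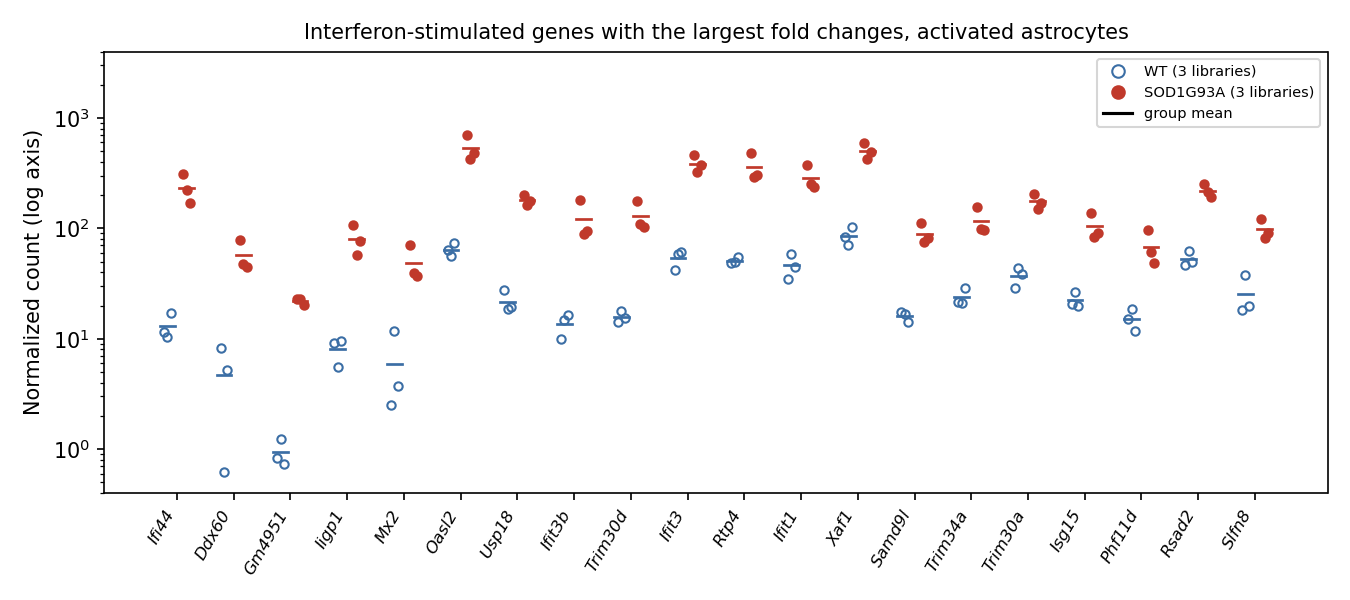
Normalized counts (vertical log axis) of the 20 interferon-stimulated genes with the largest fold changes in activated astrocytes, one point a library, open blue for WT and filled red for *SOD1G93A* (3 libraries each), with a line at each group mean. The groups do not overlap for any of the 20, and for *Ifi44* the WT libraries read 11.6, 10.5 and 17.001 and the *SOD1G93A* libraries 312, 222 and 169.

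Interferon-inducible GTPases were among the called genes. Of the guanylate-binding proteins, *Gbp3* (chr3:142560026-142573209) read 214, 214 and 261 in WT and 826, 697 and 721 in *SOD1G93A* (log2 fold change 1.70 ± 0.09 (SE), adjusted p = 5.77e-11). Its neighbour *Gbp7* (chr3:142530342-142550149) read 147, 138 and 141 and 482, 375 and 379 (log2 fold change 1.52 ± 0.10 (SE), adjusted p = 1.78e-09). *Gbp2*, a gene of the reactive astrocyte panel, was the most highly expressed of the Gbp genes named here and stood apart from them, at 1268, 1180 and 1276 in WT and 1536, 1464 and 1384 in *SOD1G93A*, and was not called (log2 fold change 0.24 ± 0.06, adjusted p = 0.0229). Of the immunity-related GTPases, *Iigp1* (chr18:60376027-60392634) read 9.14, 5.54 and 9.61 and 107, 57.3 and 77.4 (log2 fold change 3.15 ± 0.28 (SE), adjusted p = 1.38e-07). *Irgm1* (chr11:48861968-48871683), which regulates the effector GTPases and autophagy, read 87.2, 100.3 and 90.2 and 317, 291 and 275 (log2 fold change 1.66 ± 0.10 (SE), adjusted p = 9.04e-10). *Igtp* and *Irgm2*, whose annotated spans overlap on the same chromosome, were called as well, with log2 fold changes of 1.76 and 1.64.

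Tripartite motif genes formed a further group on chromosome 7. *Trim30d* (chr7:104470014-104507849) read 14.1, 17.9 and 15.5 in WT and 177, 110.1 and 104 in *SOD1G93A* (log2 fold change 2.93 ± 0.21 (SE), adjusted p = 6.55e-09). *Trim30a*, a close copy of it and a regulator of inflammatory signalling, read 29.1, 43.7 and 38.4 and 206, 151 and 169 (log2 fold change 2.22 ± 0.16 (SE), adjusted p = 1.02e-08). *Trim34a*, *Trim12a* and *Trim12c* from the same stretch were called with log2 fold changes of 2.22, 1.42 and 1.22. The counts of these copies share the uncertainty named for the Ifit genes. *Trim25*, on another chromosome, encodes the ubiquitin ligase that activates RIG-I and was higher by 1.84 ± 0.13 on the log2 scale (adjusted p = 4.06e-09).

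Of 37 genes for interferon ligands, receptors and signalling, 26 passed the filter and 6 were called (background 0.645%), all higher and all on the interferon-stimulated list too. The other members that passed had a median log2 fold change of −0.08. Of the called genes named below, *Stat2* and *Irf7* lost the call with library total as a term, at log2 fold changes of 1.41 and 1.72. *Stat2* also lost it with DESeq2 (log2 fold change 1.08, adjusted p = 0.00352 in DESeq2). *Stat2* (chr10:128270559-128292849) read 140.4, 132 and 129 in WT and 390.5, 242 and 214 in *SOD1G93A* (log2 fold change 1.02 ± 0.15 (SE), adjusted p = 0.00011), and its partner *Irf9* (chr14:55603571-55610030) read 114, 105 and 104 and 315, 268 and 303 (log2 fold change 1.45 ± 0.10 (SE), adjusted p = 4.06e-09). *Irf7* (chr7:141262706-141266481), the factor that amplifies interferon production, read 56.5, 92.9 and 63.6 and 228, 143 and 149 (log2 fold change 1.27 ± 0.18 (SE), adjusted p = 6.5e-05). *Usp18* (chr6:121245906-121270917), the negative feedback regulator that displaces JAK1 from IFNAR2, showed the largest difference of the signalling list, at 27.4, 18.5 and 19.2 and 199, 163 and 177 (log2 fold change 3.01 ± 0.17 (SE), adjusted p = 2.34e-10).

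The genes of the type I receptor were not called. *Ifnar1* (chr16:91485238-91507441) read 1086, 1127 and 1174 in WT and 1094, 1196 and 1173 in *SOD1G93A* (log2 fold change 0.03 ± 0.06 (SE), adjusted p = 0.836), and the groups overlapped. *Ifnar2* (chr16:91372783-91405589) read 369.6, 366 and 341 and 322, 312 and 322 (log2 fold change −0.17 ± 0.08, adjusted p = 0.205). *Ifnb1* (chr4:88522025-88522774) had 0 reads in all 6 libraries, which allows up to 3 reads in each, or 1.85 to 2.49 normalized counts in a WT library and 3.30 to 6.11 in a *SOD1G93A* library. *Ifna1*, *Ifna2*, *Ifna4*, *Ifnk*, *Ifne*, *Ifng*, *Ifnl2* and *Ifnl3* also had 0 reads in each of the 6. *Socs3*, a feedback inhibitor of cytokine receptors, stood lower in *SOD1G93A* without reaching the limits, at 209, 259 and 227 in WT and 194, 157 and 138 in *SOD1G93A* (log2 fold change −0.51 ± 0.12, adjusted p = 0.0092).

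Of 35 genes for sensors of nucleic acids and their adaptors, 27 passed the filter and 3 were called (11.1%, background 0.645%). Of these, *Ifih1* and *Eif2ak2* lost the call with library total as a term, at log2 fold changes of 1.67 and 1.03. *Ifih1* (chr2:62595798-62646255), which encodes MDA5, a sensor of long double-stranded RNA, read 63.963, 56.6 and 57.7 in WT and 253, 139.8 and 159 in *SOD1G93A* (log2 fold change 1.57 ± 0.17 (SE), adjusted p = 2.03e-06). *Ddx58* (chr4:40203773-40239828), which encodes RIG-I, read 152, 135 and 171 and 524, 353 and 381 (log2 fold change 1.44 ± 0.12 (SE), adjusted p = 7.19e-08). *Eif2ak2* was the other. Their adaptor *Mavs* was level, at 201, 183 and 192 and 199.8, 172 and 193 (adjusted p = 0.907). *Tlr3*, the endosomal receptor for double-stranded RNA, did not overlap between groups but stayed under 2-fold, at 125, 127 and 116 in WT and 235, 220.2 and 208 in *SOD1G93A* (log2 fold change 0.84 ± 0.10 (SE), adjusted p = 8.7e-06). For the DNA-sensing arm, *Tmem173*, which encodes STING, read 70.6, 60.3 and 104 and 99.3, 86.981 and 99.8 (adjusted p = 0.309), and the groups overlapped. The median of the 27 was 0.13, and without the 9 that are on the interferon-stimulated list it was −0.0026.

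Antigen presentation by MHC class I was higher in part. Of 30 genes, 21 passed the filter, 4 were called (background 0.645%) and 17 did not overlap with *SOD1G93A* above (background 12.5%), with a median log2 fold change of 0.44. All 4 calls ended with library total as a term, where the log2 fold changes were 1.33 for *Tap1*, 1.97 for *Nlrc5*, 1.67 for *H2-T23* and 1.16 for *H2-Q4*. *Tap1* (chr17:34187553-34197225), a subunit of the peptide transporter, read 88.1, 99.1 and 103 in WT and 273, 190.5 and 206 in *SOD1G93A* (log2 fold change 1.18 ± 0.13 (SE), adjusted p = 2.2e-06). *Nlrc5* (chr8:94434356-94527272), the transactivator of class I genes, read 12.5, 14.8 and 11.8 and 70.5, 36.3 and 46.8 (log2 fold change 1.85 ± 0.26 (SE), adjusted p = 8.52e-05). The non-classical *H2-T23* and *H2-Q4* were called with log2 fold changes of 1.39 and 1.27, and reads of this family of near-copies may be shared between members. *B2m*, the light chain of all class I molecules and the most abundant interferon-stimulated gene per kilobase, stayed under 2-fold at 1148, 1294 and 1093 and 2414, 1994 and 2246 (log2 fold change 0.91 ± 0.07 (SE), adjusted p = 4.05e-08). MHC class II was mostly under the filter, since 1 of the 10 genes in the table passed the filter, *H2-DMa*, at 9.97, 16.6 and 13.3 in WT and 13.9, 6.61 and 16.3 in *SOD1G93A*.

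Of 26 chemokine genes, 17 passed the filter, and *Cxcl10* alone was called (background 0.645%). *Cxcl10* (chr5:92346638-92348889), a ligand of CXCR3 on T cells that responds to both interferon and NF-kB, read 464, 487 and 518 in WT and 1869, 1548 and 1417 in *SOD1G93A* (log2 fold change 1.71 ± 0.08 (SE), adjusted p = 3.56e-11). *Ccl2*, the monocyte chemoattractant and the most abundant chemokine per kilobase, was level at 4458, 3906 and 3989 and 3948, 4312 and 3816 (log2 fold change −0.03 ± 0.07, adjusted p = 0.843). *Cxcl12* pointed the other way, at 115, 82.5 and 65.8 in WT and 41.6, 55.1 and 32.6 in *SOD1G93A* (log2 fold change −1.0026 ± 0.21, adjusted p = 0.0041). The median over the 17 was −0.09.

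The 35-gene reactive astrocyte panel had 31 genes past the filter, and its 3 called genes (background 0.645%), all higher, are interferon-stimulated genes as well. Its median log2 fold change was −0.07, and 14 of the 31 did not overlap with *SOD1G93A* below, beside 9 above, where the background was 11.6% below and 12.5% above. *C3* (chr17:57203970-57228136), the complement component that marks neuroinflammatory reactive astrocytes, read 1914, 1525 and 1729 in WT and 1456, 1464 and 1368 in *SOD1G93A* (log2 fold change −0.26 ± 0.07, adjusted p = 0.0274). *Lcn2* (chr2:32384633-32388252), which encodes lipocalin-2, read 13697, 12438 and 12702 and 10610, 12214 and 10661 (log2 fold change −0.22 ± 0.07, adjusted p = 0.0644). Both lay lower in all *SOD1G93A* libraries than in any WT library, by well under 2-fold. *Gfap* (chr11:102887336-102900912), the intermediate filament of astrocytes, read 4063, 3918 and 3834 in WT and 3062, 3315 and 3038 in *SOD1G93A* (log2 fold change −0.33 ± 0.06, adjusted p = 0.00102). *Serpina3n*, a secreted protease inhibitor of the panel, read 1109.8, 1041 and 899 and 568, 814 and 597 (log2 fold change −0.64 ± 0.10, adjusted p = 0.000342).

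NF-kB carries the signal of IL-1α and TNFα. Of 45 NF-kB target genes, a list without *Cxcl10*, 44 passed the filter, with a median of −0.09. None was called higher (background 0.521%) and 1, *Mmp3*, was called lower (background 0.124%). *Il6*, a cytokine of this list, read 113, 86.2 and 89.4 in WT and 58.9, 66.1 and 59.045 in *SOD1G93A* (log2 fold change −0.63 ± 0.15, adjusted p = 0.0111). Complement had 15 of 27 genes past the filter and no call (background 0.645%, as for the lists that follow). Its median was −0.05, and its most abundant gene per kilobase, *Clu*, read 1486, 1343 and 1267 and 1096, 1219.9 and 1134. No call was made among the 29 cell cycle genes (median −0.07), of which *Pcna*, a clamp of the replication fork and the most abundant per kilobase, read 615, 657 and 644 and 581, 565 and 678, and *Mki67* read 905, 1073 and 1019 in WT and 1103, 848 and 937 in *SOD1G93A*. The 26 targets of NRF2, the regulator of the response to oxidants, gave no call and a median of −0.09. *Slc7a11*, the cystine importer on that list, was level at 7984, 6925 and 6822 and 7368, 7805 and 6554, and *Gstm1*, a glutathione transferase, read 1805, 1590.5 and 1689.8 and 1907, 1916 and 1908. Of 24 tested genes of the unfolded protein response and chaperones, *Asns* alone was called (background 0.645%), and the median was 0.04. At that share, lists of this size without a call lie near the background. The 18 tested immediate early genes gave no call and a median of 0.09, with *Ier3* at 2191, 1919.8 and 1889 and 1647, 1930.1 and 1686 and *Egr1* at 1824, 1967 and 2050.5 and 1814, 2270.3 and 1975.

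Outside the interferon-stimulated list stood 24 called genes, 9 higher and 15 lower. Of the 9, 8 also lay above 0 in quiescent astrocytes, with a median log2 fold change of 0.63. There 6 did not overlap with *SOD1G93A* above (background 7.07%). Of the 15, 11 were tested in quiescent astrocytes, with a median of −0.45, 6 below 0 and 5 without overlap below (background 7.57%). The Y-linked *Ddx3y*, *Kdm5d*, *Uty* and *Eif2s3y* were all among those without overlap below, and *H19* was the other. *Dcx* also lay below 0, while *Slit2*, *Il33*, *Col23a1*, *Igfbp7* and *Dscaml1* lay above 0. The higher genes include the sex gene *Xist*, whose groups did not overlap there either. None of the called genes outside the list was called in the quiescent state. The 9 higher genes are described one by one, and no shared function was tested. *Rab26* (chr17:24527241-24534210), a small GTPase of secretory vesicles, had the largest rise, at 43.2, 52.9 and 51.7 in WT and 168, 161 and 138 in *SOD1G93A* (log2 fold change 1.64 ± 0.14 (SE), adjusted p = 8.16e-08). *Dio2* (chr12:90724552-90738438), the deiodinase by which astrocytes convert thyroxine to the active hormone, read 188, 204 and 264 and 602, 602 and 542 (log2 fold change 1.42 ± 0.10 (SE), adjusted p = 6.11e-09). *Thrsp* (chr7:97412938-97417730), a thyroid hormone-responsive regulator of fatty acid synthesis, read 42.4, 65.2 and 62.1 and 166, 109 and 175 (log2 fold change 1.39 ± 0.18 (SE), adjusted p = 2.8e-05). The groups of all 3 genes were separate. *Acss2* (chr2:155517948-155585724), which makes acetyl-CoA from acetate in the cytosol and nucleus, read 189, 133 and 158 in WT and 364, 333 and 354 in *SOD1G93A* (log2 fold change 1.14 ± 0.11 (SE), adjusted p = 3.34e-07).

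*Asns* (chr6:7675169-7693254), asparagine synthetase, read 178, 164 and 169 in the WT libraries and 429.7, 361 and 387 in the *SOD1G93A* libraries (log2 fold change 1.20 ± 0.09 (SE), adjusted p = 9.43e-09). *Aldh1l2* (chr10:83487450-83534140), a mitochondrial enzyme of folate one-carbon metabolism, read 107, 110.2 and 133 and 307, 255 and 228 (log2 fold change 1.16 ± 0.12 (SE), adjusted p = 9.88e-07). *Pck2* (chr14:55540266-55551242), the mitochondrial phosphoenolpyruvate carboxykinase, read 118, 114 and 103 and 252, 205 and 254 (log2 fold change 1.07 ± 0.11 (SE), adjusted p = 1.15e-06). These 3 genes are known targets of ATF4, the transcription factor of the amino acid and integrated stress responses. *Angpt2* (chr8:18690263-18741562), a secreted ligand of the endothelial receptor TIE2, read 109, 135 and 157 in WT and 298, 259 and 326 in *SOD1G93A* (log2 fold change 1.14 ± 0.12 (SE), adjusted p = 1.72e-06).

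Of the 15 lower genes, 4 lie on the Y chromosome. The other 11 are described one by one, and no shared function was tested. *Angptl4* (chr17:33773750-33781830), a secreted inhibitor of lipoprotein lipase, had the largest fall, from 72.3, 59.1 and 51.7 in WT to 11.6, 26.4 and 12.2 in *SOD1G93A* (log2 fold change −1.89 ± 0.27 (SE), adjusted p = 9.55e-05). *Slit2* (chr5:47983138-48307733), a repulsive guidance cue for axons, read 269, 195 and 189 and 86.6, 107 and 59.045 (log2 fold change −1.38 ± 0.17 (SE), adjusted p = 1.33e-05). *Il33* (chr19:29925114-29960718), an alarmin of the interleukin-1 family, read 76.4, 61.6 and 54.7 and 27.7, 31.9 and 16.3 (log2 fold change −1.35 ± 0.23 (SE), adjusted p = 0.000792). *Mmp3* (chr9:7445822-7455975), the matrix metalloproteinase stromelysin-1, read 135, 116 and 120.5 in WT and 62.4, 50.6 and 38.7 in *SOD1G93A* (log2 fold change −1.30 ± 0.16 (SE), adjusted p = 1.94e-05).

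The collagen genes *Col6a2* and *Col23a1* were both lower. *Col6a2* (chr10:76595762-76623630), a chain of the beaded microfibril collagen VI, read 54.8, 43.1 and 43.6 in WT and 16.2, 8.81 and 20.4 in *SOD1G93A* (log2 fold change −1.64 ± 0.28 (SE), adjusted p = 0.000568). *Col23a1* (chr11:51289920-51583918), a transmembrane collagen, read 789, 705 and 601 and 348, 355 and 285 (log2 fold change −1.08 ± 0.10 (SE), adjusted p = 1.4e-07). *Igfbp7* (chr5:77349240-77408041), a secreted insulin-like growth factor binding protein, read 101, 104 and 103 and 34.7, 56.2 and 40.7 (log2 fold change −1.24 ± 0.17 (SE), adjusted p = 5.75e-05). The WT libraries of *Igfbp7* lay within a few counts of each other. *H19* (chr7:142575529-142578143), an imprinted long noncoding RNA, read 495, 351 and 340.02 in WT and 163, 189 and 181 in *SOD1G93A* (log2 fold change −1.13 ± 0.12 (SE), adjusted p = 1.08e-06). *Vgf* (chr5:137026392-137033351), a precursor of secreted neuropeptides, read 302, 211 and 205 and 116, 123 and 97.7 (log2 fold change −1.07 ± 0.13 (SE), adjusted p = 1.65e-05). *Dscaml1* (chr9:45426628-45753712), a neural cell adhesion molecule, read 54.8, 58.5 and 48.8 and 18.5, 22.021 and 24.4 (log2 fold change −1.29 ± 0.21 (SE), adjusted p = 0.000391). *Dcx* (chrX:143855842-143933311), the microtubule-binding protein of migrating neuroblasts, read 105, 86.2 and 83.5 in WT and 45.1, 41.8 and 36.6 in *SOD1G93A* (log2 fold change −1.13 ± 0.16 (SE), adjusted p = 9.01e-05).

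**Figure D3:**
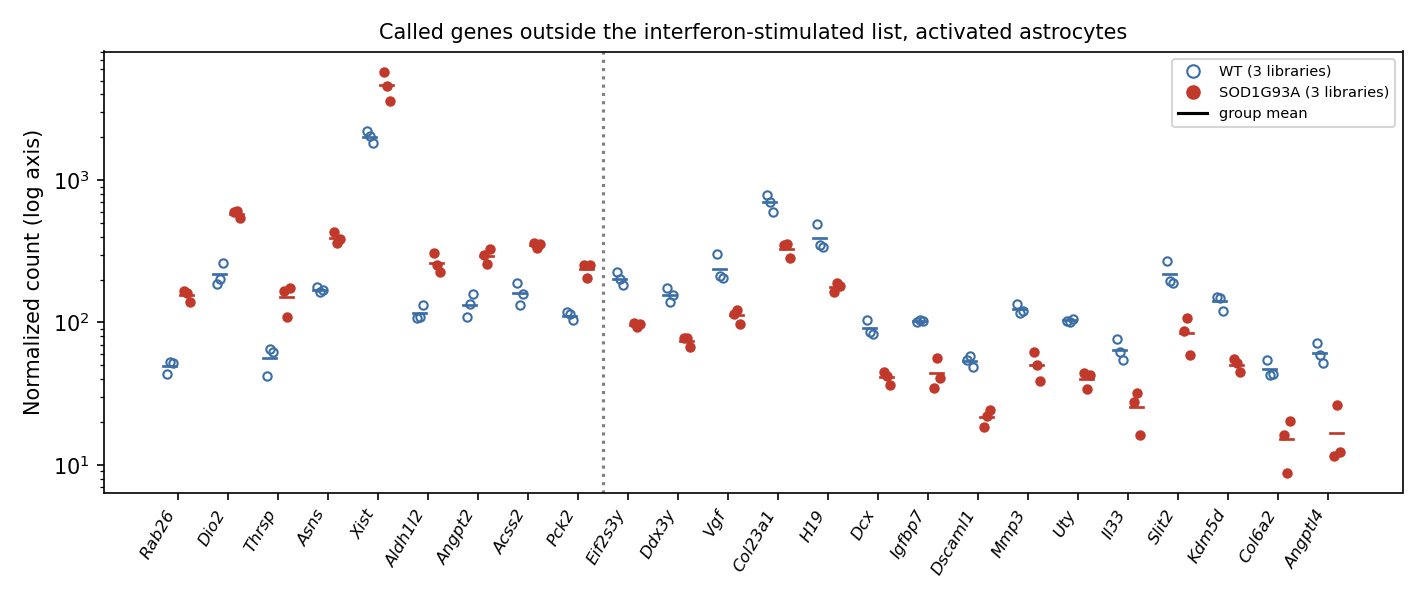
Normalized counts (vertical log axis) of the 24 called genes outside the interferon-stimulated list, one point a library, open blue for WT and filled red for *SOD1G93A* activated astrocytes (3 libraries each), with a line at each group mean; the dotted line parts the 9 higher from the 15 lower genes. The groups do not overlap for any of the 24, and the log2 fold changes run from 1.64 for *Rab26* to −1.89 for *Angptl4*.

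Genes that mark sex differed between the groups. *Xist* (chrX:103460366-103483254), the RNA that coats the inactive X chromosome of female cells, read 2199, 2050.3 and 1818 in WT and 5793, 4607 and 3622 in *SOD1G93A* (log2 fold change 1.19 ± 0.11 (SE), adjusted p = 2.62e-07). All 4 Y-linked genes tested were lower. *Ddx3y* (chrY:1260771-1286629), a helicase gene of the male Y chromosome, read 175, 138 and 157 in WT and 77.4, 78.2 and 67.2 in *SOD1G93A* (log2 fold change −1.07 ± 0.13 (SE), adjusted p = 1.01e-05). *Kdm5d*, *Uty* and *Eif2s3y* were called as well, with log2 fold changes of −1.45, −1.35 and −1.06. All 6 libraries held both *Xist* and Y-linked reads. Of the X-linked partners of these 4 genes, chosen after their values were seen, *Eif2s3x* differed by 0.41 ± 0.06 on the log2 scale (adjusted p = 5.22e-05), while *Kdm5c* at 0.13, *Kdm6a* at 0.22 and *Ddx3x* at 0.04 had adjusted p of 0.287, 0.257 and 0.748. With X-linked and Y-linked genes left out, 62 genes were higher and 10 lower, and all 54 of the interferon-stimulated list stayed called. The part of sex in the other differences was not tested.

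Markers of microglia were detected in every library, and their summed level overlapped between the genotypes. Of 26 microglia markers, 21 passed the filter and none was called, near the background of 0.645%. Their median log2 fold change was −0.14, beside −0.0038 over all genes, and 3 lay above 0. Their summed level was 1922, 3282 and 1734 in WT and 2526, 1617 and 1875 in *SOD1G93A*, so the second WT library was the highest of the 6. *Lyz2*, the most abundant of them per kilobase, read 323, 584 and 287 in WT and 447, 240.03 and 336 in *SOD1G93A*, and *Csf1r*, the receptor on which microglia depend, read 179, 282 and 159 and 206, 149 and 163. *Laptm5*, a lysosomal membrane protein of the same list, read 194, 324 and 177 and 255, 169.6 and 175. With library total as a term the median of the list was 0.21, so its direction depends on how depth is treated. Endothelial markers were nearly absent, with 2 of 14 past the filter, *Flt1* and *Itm2a*, and 4, *Cldn5*, *Cdh5*, *Ly6c1* and *Abcb1a*, at 0 reads in all 6 libraries. Their summed level was 644, 686 and 730.3 in WT and 541, 553 and 527 in *SOD1G93A*, most of it from *Flt1* at 565, 607 and 639 and 497, 492 and 478.

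Markers of other lineages gave 1 call, where 0.645% of all genes were called and 0.124% were called lower. Of 16 neuron markers, 12 passed the filter, *Dcx* was called lower, and the median was −0.47, with *Map2* the most abundant per kilobase and a summed level of 2270.3, 2439 and 2509.5 in WT and 2291, 2239.5 and 2344 in *SOD1G93A*. The 16 pericyte and fibroblast markers had 8 past the filter, no call and a median of −0.31, with a summed level of 1094, 1191 and 1019 in WT and 911, 892 and 867 in *SOD1G93A*, *Tagln* most abundant per kilobase and *Abcc9* at 0. *Cspg4*, which oligodendrocyte precursors share, read 269.97, 309 and 277 and 321, 299 and 275. Oligodendrocyte lineage markers had 15 of 19 past the filter and no call, with a median of 0.01 and a summed level of 6075, 6012 and 5974 in WT and 5868, 5685 and 5937 in *SOD1G93A*. *Olig1*, the most abundant of these per kilobase, read 2217, 2298 and 2175 and 2239.9, 2228 and 2563. *Olig2*, which some astrocytes keep, read 1449.5, 1476 and 1492 and 1543, 1427 and 1492, and *Mog*, a marker of myelinating cells, was at 3 reads or fewer in every library. *Pdgfra*, shared by oligodendrocyte precursors and fibroblasts, read 347, 339 and 315 in WT and 245, 227 and 204 in *SOD1G93A* (log2 fold change −0.57 ± 0.09, adjusted p = 0.000216). The part of these lineages in the lower genes was not tested.

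The first *SOD1G93A* library held the most of the interferon response. It was the highest of the 3 for 52 of the 54 called listed genes, while the lowest value fell to the second library for 33 of them and to the third for 20. Without it 67 genes were called, 46 of them on the list. The summed level of all 197 listed genes in the table was 16988, 17502 and 16950 in WT and 36418, 29262 and 30160 in *SOD1G93A*, a ratio of the means of 1.86. The summed microglia markers, given above, had the same order in the 3 *SOD1G93A* libraries, and *Xist* was also highest in the first. Their part in the library difference was not tested.

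The genotypes were also compared in quiescent astrocytes, which received no cytokines. In that comparison limma called 0 of 12271 genes (0%), with 1068 at an unadjusted p under 0.05, while DESeq2 on the recovered reads called 7 and edgeR 0. The spread between replicates, as chi-square per degree of freedom of the reads, reached 9.45 in WT and 10.4 in *SOD1G93A* quiescent astrocytes and was 1.50 to 2.38 in activated astrocytes, so the counts of calls in the 2 states rest on unlike spreads. Of the 54 listed genes called in activated astrocytes, 47 passed the filter in quiescent astrocytes, 45 lay above 0, and the median log2 fold change was 0.44, beside 0.00 over all genes. For 14 of the 47 the groups did not overlap with *SOD1G93A* above (background 868 genes, 7.07%), and for 0 below (background 929, 7.57%). *Oasl2* differed by 0.93 ± 0.23 on the log2 scale in quiescent astrocytes (adjusted p = 0.316). The sex genes leaned the same way in the quiescent state without a call, *Ddx3y* by −1.05 ± 0.14 and *Xist* by 1.99 ± 0.44 on the log2 scale, with adjusted p of 0.0455 and 0.243.

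Whether the genotype effect differed between the states was tested as an interaction in the 12 astrocyte libraries, scaled together. With limma 0 of 12269 genes were called (0%), 1018 had an unadjusted p under 0.05 and 34 (0.277%) an adjusted p under 0.05, and edgeR called 4. Of all 133 listed genes tested there, 105 had an interaction above 0, beside 6166 of all genes, with a median of 0.53 beside 0.0023, and 24 had an adjusted p under 0.05. Of these 24, 23 were called by genotype in activated astrocytes. All 53 called listed genes tested had an interaction above 0, but they were chosen on the genotype effect in the same activated libraries, so this sign was in large part set by the choice. *Usp18* and *Gbp3* had the lowest adjusted p of the interaction. On this joint scale *Usp18* read 15.5, 13.7 and 16.7 in WT quiescent astrocytes and 25.1, 21.992 and 19.9 in *SOD1G93A* quiescent astrocytes. In activated astrocytes it read 30.1, 20.2 and 21.2 in WT and 217, 179 and 194 in *SOD1G93A*, an interaction of 2.49 ± 0.29 (adjusted p = 0.00183). The genotypes were thus separate in both states, and further apart in the activated one. Outside the list, *Asns* had an interaction of 1.36 ± 0.19 (adjusted p = 0.00283) and *Dscaml1* one of −1.46 ± 0.20 (adjusted p = 0.00276). Of the sex genes, the interaction was −0.02 for *Ddx3y*, −0.04 for *Eif2s3y*, −0.22 for *Kdm5d*, −0.34 for *Uty* and −0.80 for *Xist*, with adjusted p of 0.696 or more.

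**Figure D4:**
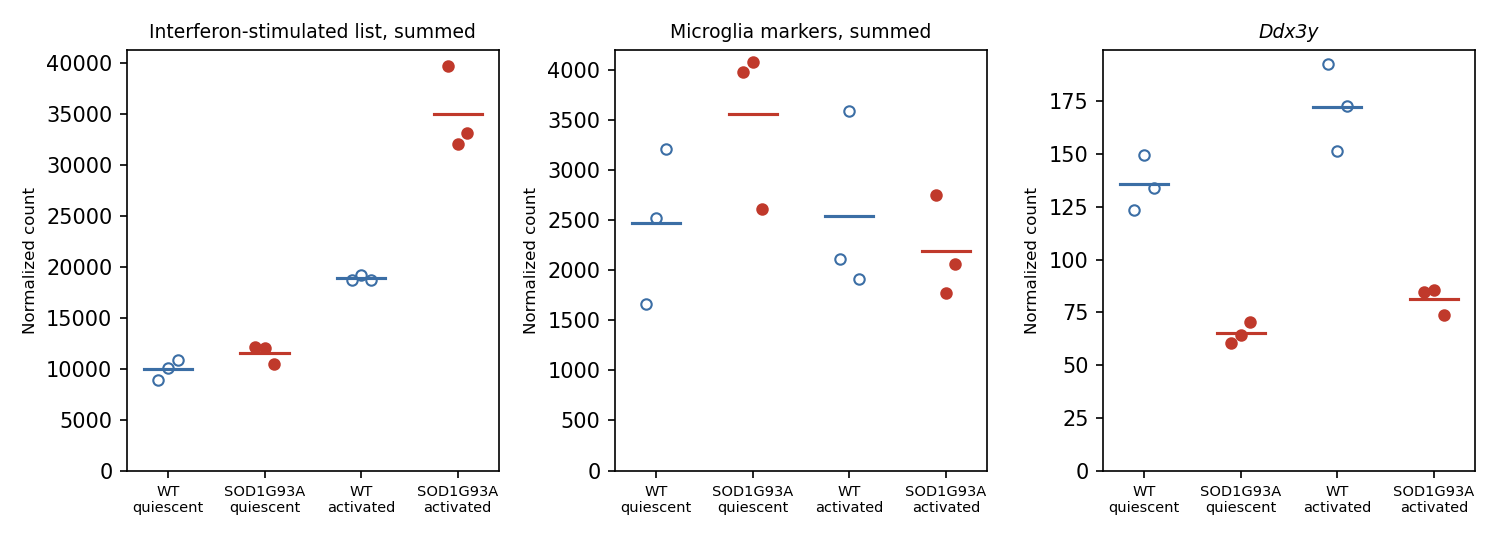
Normalized counts on the joint scale of the 12 astrocyte libraries (vertical axes from 0) for the summed interferon-stimulated list, the summed microglia markers and *Ddx3y*, one point a library, open blue for WT and filled red for *SOD1G93A*, with a line at each group mean of 3. The interferon-stimulated sum reads 18681, 19167 and 18679 in activated WT and 39716, 32074 and 33100 in activated *SOD1G93A* astrocytes, against 8837, 10098 and 10881 and 12145, 11979 and 10451 in the quiescent state.

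In LPS-activated microglia the fold changes of the same genes were mostly below 0. In this comparison 1 library stood apart in each genotype, the first WT and the third *SOD1G93A* one. The spread between replicates, as chi-square per degree of freedom of the reads, was 15.0457 and 13.8 for the pairs with that WT library and 1.65 for the other pair. For *SOD1G93A* it was 16.8 and 21.7 against 2.41. Limma called 0 of 10679 genes (0%), with 930 at an unadjusted p under 0.05, while DESeq2 called 3 and edgeR 0. All 54 listed genes passed the filter and 53 lay below 0, with a median log2 fold change of −0.44 beside 0.01 over all genes, and none had an adjusted p under 0.05. Counts of genes whose groups did not overlap are left out here, since the share over all genes was not worked out for microglia. *Cxcl10* differed by −0.83 ± 0.33 on the log2 scale in microglia (adjusted p = 0.573). The difference between astrocytes and microglia was not tested, since those tables were normalized separately and the stimuli were not the same.

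Activation itself was compared in WT astrocytes, where 740 of 12336 genes (6%) were called higher and 684 (5.54%) lower. This comparison uses the same 3 WT activated libraries, so its values are only set beside those of the genotype comparison. Of the 15 genes that were lower in *SOD1G93A* astrocytes, activation raised 9 in WT astrocytes and lowered 1. *Mmp3* had a log2 fold change of 6.82 on activation and −1.30 by genotype. *Col23a1* had 5.26 on activation and −1.08 by genotype, and *Vgf* 5.03 and −1.07. Of the 54 called interferon-stimulated genes 49 were tested on activation, of which 18 were called higher and 1 lower, with a median of 1.02 and a range of −1.71 to 4.70. Among them *Cxcl10* rose by 3.67 on activation and was higher by 1.71 in *SOD1G93A*, and *Gbp6*, the highest on activation, by 4.70 and 1.07. *Rab26* had −2.12 on activation and 1.64 by genotype.

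The promoters of the called genes were searched for the core letters of the interferon-stimulated response element, GAAANNGAA, on both strands in the 250 bases before each gene's start (RefSeq, GRCm38.p6). Of the 54 called listed genes 41 had a promoter in the table, and 22 of the 41 (53.7%) held these letters, beside 2342 of all 32851 promoters (7.13%) and 13 of 62 listed genes that were tested and not called (21%). Of the called genes outside the list with a promoter, 0 of 6 higher and 0 of 11 lower held them, beside 553 of 9232 over all genes tested (5.99%). Other letters searched, TTCNNNGAA, stood in 12.2% of the called listed genes, 17.7% of the listed genes not called and 7.02% of all promoters. A match is a description of the letters and shows no binding. The 150 bases before the start are shown for 6 genes that differed between the genotypes and hold GAAANNGAA once or more, from 5′ to 3′ on the gene's own strand, with the letters matching it on either strand in capitals. The windows are chr8:61927937-61928086, plus strand for *Ddx60*, chr19:34640739-34640888, plus strand for *Ifit1*, chr4:156200819-156200968, minus strand for *Isg15*, chr3:142559894-142560043, plus strand for *Gbp3*, chr11:48871421-48871570, minus strand for *Irgm1* and chr8:71537473-71537622, minus strand for *Bst2*. Matches run into each other in 5 of the 6, so that the capitals there join overlapping copies.
Ddx60: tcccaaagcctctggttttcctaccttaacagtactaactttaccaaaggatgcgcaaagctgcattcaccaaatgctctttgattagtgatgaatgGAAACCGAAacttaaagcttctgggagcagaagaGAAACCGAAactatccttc
Ifit1: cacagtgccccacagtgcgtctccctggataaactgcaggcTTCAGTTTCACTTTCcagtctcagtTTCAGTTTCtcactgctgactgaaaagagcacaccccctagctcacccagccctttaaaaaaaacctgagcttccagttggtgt
Isg15: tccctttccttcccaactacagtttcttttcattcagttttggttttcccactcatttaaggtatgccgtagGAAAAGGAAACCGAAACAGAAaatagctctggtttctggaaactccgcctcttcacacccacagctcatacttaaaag
Gbp3: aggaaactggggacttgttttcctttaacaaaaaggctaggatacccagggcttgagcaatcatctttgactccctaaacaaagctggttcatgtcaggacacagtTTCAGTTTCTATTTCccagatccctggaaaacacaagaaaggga
Irgm1: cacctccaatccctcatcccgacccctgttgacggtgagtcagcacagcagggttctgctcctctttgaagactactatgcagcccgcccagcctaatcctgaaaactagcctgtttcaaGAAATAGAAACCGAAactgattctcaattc
Bst2: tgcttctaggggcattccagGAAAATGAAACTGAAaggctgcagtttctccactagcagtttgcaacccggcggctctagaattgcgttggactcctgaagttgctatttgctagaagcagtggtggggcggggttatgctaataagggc

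For the genes outside the list, the letters TGATGNAA, the core to which ATF4 and its partners bind, were searched in the same way, a motif chosen after the values were seen. They stood in the promoters of *Asns* and *Pck2*, 2 of the 6 higher genes with a promoter, in 3 of the 41 called listed genes (7.32%), in 0 of 11 lower genes, in 1.85% of all genes tested and in 3.45% of all promoters. The window of *Asns* (chr6:7693210-7693359, minus strand) and that of *Pck2* (chr14:55540116-55540265, plus strand) follow, with the matching letters in capitals.
Asns: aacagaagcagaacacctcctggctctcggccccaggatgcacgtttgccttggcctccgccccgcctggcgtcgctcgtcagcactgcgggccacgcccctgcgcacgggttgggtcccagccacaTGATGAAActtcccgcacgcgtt
Pck2: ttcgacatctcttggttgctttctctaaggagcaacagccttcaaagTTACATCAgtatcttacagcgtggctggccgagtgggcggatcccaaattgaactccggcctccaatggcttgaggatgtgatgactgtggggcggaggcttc

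The number of calls changed with some settings, though DESeq2 called 81 genes and edgeR 84. Limma without the intensity trend called 1 gene, *Gm4951*, in place of 78. With library total as a term 38 were called, of which 37 were higher, 1 was lower and 32 were on the list. Every *SOD1G93A* library was shallower than every WT library, so this term cannot fully part depth from genotype. Whether a call lost with it reflects depth was not tested. The median of the 136 listed genes was 1.03 with that term and 0.93 without it. With reads thinned to the shallowest library, an alternative chosen after seeing the data, 78 genes were called, 53 of them on the list. Without the first WT library 5 genes were lower in place of 15, namely *Slit2*, *Mmp3*, *Igfbp7*, *Kdm5d* and *Uty*. *Col23a1*, *H19* and *Vgf*, which the rule did not name, thus lost the call in that fit. The first WT library was the highest of the 3 WT libraries for 12 of the 15 lower genes.

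Of the 44 called genes that were named by rule, 32 kept the call in every fit that left out 1 library and could test them. *Il33* lost it in all 6 fits, *Col6a2* and *Dscaml1* in 5 each, *H2-T23* in 4 and *Stat2* in 3. *Ddx3y*, *Eif2ak2* and *Mx2* lost it in 2 fits each, and *Angptl4*, *Dcx*, *Eif2s3y* and *Nlrc5* in 1. The direction was the same in all of these fits, with *Il33* at −1.07 to −1.54, *Col6a2* at −1.32 to −1.88 and *Dscaml1* at −1.18 to −1.37. *Stat2* ran from 0.77 to 1.20. With library total as a term *Il33* had −0.70 (adjusted p = 0.459), *Slit2* −0.90 (adjusted p = 0.122) and *Mmp3* −0.92 (adjusted p = 0.102), and of the named genes outside the list *Acss2*, *Angpt2*, *Angptl4*, *Col6a2*, *Dcx*, *Dscaml1*, *Igfbp7*, *Pck2*, *Thrsp*, *Ddx3y*, *Eif2s3y*, *Kdm5d* and *Uty* lost the call too. Of the named genes on the list, *Ddx60*, *Eif2ak2*, *Gm4951*, *H2-Q4*, *H2-T23*, *Ifih1*, *Iigp1*, *Irf7*, *Mx2*, *Nlrc5*, *Stat2* and *Tap1* lost the call with that term, with log2 fold changes of 1.03 for *Eif2ak2* to 4.05 for *Mx2*.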

How the data were processed

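For each gene and library the authors deposited a normalized count, a signal in which the read count is divided by a DESeq2 size factor, and beside it DESeq2 fold changes and p-values that were not used. The submitters' notes name STAR 2.7.3a, RSEM and the mm10 build. Dividing each column by its step recovered whole reads, 100% of values lying within 0.01 of a whole read. Libraries held 2135439 to 6768201 reads, and a gene at 0 reads is known only to lie under about 3 reads. The 2 tables that compare microglial states were left out. Genes averaging 10 or more were tested on log2(normalized count + 1) with limma 3.58.1 (R 4.3.3), with an intensity trend and Benjamini-Hochberg adjustment, and were called at an adjusted p under 0.001 and a change over 2-fold. Adjusted p are from limma, and those of the interaction from its own fit. DESeq2 1.42.0 called 81 genes on the recovered reads and edgeR 4.0.16 called 84. In simulated data with 200 changed genes, limma recovered 196 with 0 false calls. The share recovered in the deposited libraries was not tested. The interaction was fitted in the 12 astrocyte libraries after scaling by median of ratios. Positions are from GENCODE M21 and promoters from RefSeq.

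Genes were named by rule: the top 10 called rises and top 10 called falls by fold, the same outside the interferon-stimulated list, 17 genes set by name, and of each list up to 4 called members with the smallest p or, with none called, the 2 of highest mean; 1 gene that the rule names is not reported here. Other genes were picked once their values had been seen. The 20 lists hold interferon-stimulated genes, interferon ligands, receptors and signalling, nucleic acid sensors, chemokines, NF-kB targets, the reactive astrocyte panel, complement, MHC class I, MHC class II, cell cycle, NRF2 targets, the unfolded protein response, immediate early genes, 6 cell-type marker sets and sex genes. Members and lists were chosen with earlier results of these data known. Alternatives changed the pseudocount, filter, scaling, tool, limits, replicate block, library total and each left-out library. Tables were made with Python 3.11.15, pandas 2.3.3, SciPy 1.17.1 and matplotlib 3.10.9.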

Additional observations from a re-analysis of the deposited data

Results flagged for a closer look

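For 10 of the genes named by rule the difference between genotypes was not the same in activated as in quiescent astrocytes, by the interaction test at an adjusted p under 0.05 in limma. The interaction, the log2 genotype effect in activated minus that in quiescent astrocytes, was 2.81 for *Ifit3b*, 2.49 for *Usp18*, 2.09 for *Oasl2*, 2.09 for *Xaf1*, 2.05 for *Ifit3*, 1.24 for *Cxcl10* and 1.14 for *H2-Q4*. Outside the interferon-stimulated list it was 1.36 for *Asns*, 1.04 for *Angpt2* and -1.46 for *Dscaml1*. Over all 12269 genes tested 34 had such a p, 24 of them on the interferon-stimulated list, *Gbp3* at 1.36 among them. None of them passed the stricter limit of 0.001, and the cause of the differences was not tested.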

How the results depend on the processing

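The main counts were 78 called, 63 higher, 15 lower and 24 outside the interferon-stimulated list. Limma without a trend gave 1, 1, 0 and 0, and library total as a term gave 38, 37, 1 and 6. An adjusted p under 0.05 with 2-fold gave 123 called, 40 lower and 61 outside the list, and at any fold change 879, 557 higher, 322 lower and 791 outside. Leaving out 1 library gave 67 to 81 called, 55 to 69 higher, 5 to 13 lower and 15 to 27 outside the list. All other settings kept these counts within 1.5 times, except the replicate block, given below. The interaction count of 0 became 4 with edgeR, 34 at an adjusted p under 0.05, 3 with a pseudocount of 5 and 0 to 6 without 1 library. In quiescent astrocytes the count of 0 became 7 with DESeq2 and 7 at an adjusted p under 0.05, and in LPS microglia 3 and 1. The cause was not tested. Reads thinned to the shallowest library gave 78 called, 67 higher and 11 lower, and leaving out X and Y genes gave 72. Thinning, leaving out X and Y genes and the tools for quiescent astrocytes and microglia were chosen after seeing the data. Over 71 named genes and 21 settings, 1328 values kept direction and side of the threshold, 114 kept direction and lost the call, 7 gained it and 23 changed sign, all 23 in genes that were not called in the main test. These were *Egr1* −0.0186, *Ifnar1* −0.0219, *Olig1* −0.0045 and *Olig2* −0.031 with quantile normalization, and with library total as a term *Ccl2* 0.013, *Laptm5* 0.2539, *Lyz2* 0.0159, *Mki67* 0.0396, *Olig1* −0.0869, *Slc7a11* 0.1247 and *Sod1* −0.1052. Leaving out 1 library at a time, the values ran from −0.0828 to 0.0262 for *Ccl2*, −0.0562 to 0.0717 for *Slc7a11*, −0.3725 to 0.0838 for *Laptm5*, −0.4126 to 0.1176 for *Lyz2*, −0.013 to 0.0435 for *Olig2*, −0.0393 to 0.1227 for *Egr1*, −0.4005 to 0.1917 for *H2-DMa* and −0.1607 to 0.0291 for *Mki67*, and thinned reads gave *Slc7a11* 0.018. The cause of these changes was not tested. The list medians that turned sign were complement at 0.02 and oligodendrocyte markers at −0.0045 with quantile normalization, and with library total as a term interferon ligands, receptors and signalling at 0.05, chemokines at 0.08, oligodendrocyte markers at −0.05 and microglia markers at 0.21. Samples share replicate numbers, but deviations of the same number correlated at 0.0152, −0.0718 and 0.0482, which gave no sign of pairing. These correlations cannot show whether libraries of the same number were prepared together, and the labels do not say. A block on them gave 100 called, 24 lower and 41 outside the list. Depth limits genes near the floor, since 3 reads are 6.11 normalized counts in the shallowest library.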

Other observations

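Most members of an amino acid response set and a lipid synthesis set lay higher in activated *SOD1G93A* astrocytes, mostly by less than 2-fold. The choice of the sets followed the values. *Chac1*, *Cth* and *Trib3* of the first set and *Pnpla3* of the second passed 2-fold at adjusted p of 0.00369, 0.0202, 0.00656 and 0.00355, over the limit for a call. Both sets were drawn up after the values were seen, without the called genes that prompted them, and neither was tested as a set. Their signs and overlap counts may therefore be set in large part by the choice. That 0 members of each set were called (background 0.645%) follows in part from leaving those called genes out. *Trib3*, with a WT mean of 4.65, passed the filter on its *SOD1G93A* level. Of 33 amino acid response genes 32 passed the filter, 30 lay above 0 and 25 did not overlap with *SOD1G93A* above, beside 12.5% of all genes, while 0 were called. Their median log2 fold change was 0.35, and −0.07 in quiescent astrocytes. *Slc7a5*, the large neutral amino acid transporter, read 520.2 ± 14.9 in WT and 1028 ± 134 in *SOD1G93A* (mean ± SD, n = 3 each; log2 fold change 0.97 ± 0.08, adjusted p = 3.96e-08 in limma). *Psat1*, an enzyme of serine synthesis, read 755 ± 14.2 in WT and 1207 ± 92.3 in *SOD1G93A* (log2 fold change 0.67 ± 0.07, adjusted p = 5.31e-07). All 20 lipid synthesis genes lay above 0 and 18 did not overlap, with 0 called and a median of 0.45, beside 0.00 in quiescent astrocytes. Members differed in the quiescent state, with log2 fold changes of 1.61 for *Pnpla3*, 0.51 for *Insig1* and 0.39 for *Scd1*. Others lay below 0 there, down to −0.17 for *Hmgcs1*. *Insig1*, a sterol sensor of the endoplasmic reticulum, read 723 ± 72.98 in WT and 1372 ± 86.98 in *SOD1G93A* (log2 fold change 0.93 ± 0.07, adjusted p = 2.96e-08). *Scd1*, the stearoyl-CoA desaturase, read 4331 ± 461 in WT and 7975 ± 545 in *SOD1G93A* (log2 fold change 0.88 ± 0.07, adjusted p = 4.84e-08).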
